A study of Mus musculus with 8 samples.

Results

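Endothelial genes were followed in hearts of neonatal mice null for connexin43 and of wildtype neonatal mice. The members are 10 genes of blood vessel lining or endocardium: Cdh5, Pecam1, Esam, Flt1, Kdr, Tek, Tie1, Eng, Cav1 and Adgrg6. A probe counted as a member when the array annotation gave it 1 of these symbols and no other, and it was used when it had a value on at least 3 arrays of each genotype. The array held 18 such probes among its 28704, from 8 of the 10 genes, since no singly named probe stood for Kdr or Pecam1. Of these 18, 12 probes from 7 genes had enough values, among 16308 probes of the whole series that did. The single Tie1 probe had no value on any array. The genes were chosen by earlier null against wildtype values of these same arrays, so that the members' own differences are given below as a description, and nothing is read from a test of them.

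Each of 8 arrays was hybridised with labelled cDNA from a pool of 3 neonatal hearts, with 4 pools null for connexin43 and 4 wildtype pools. The labels give C57BL for the mice of both genotypes and of the reference, and they do not say how the null allele was made, which cells lack the protein or the age in hours or days. Hearts carried the dye Cy3, and the common reference carried Cy5. That reference was made once for all arrays from adult organs of both sexes, among them heart, aorta and lung, which hold endothelium of their own.

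Endothelial cells line every blood vessel and, as the endocardium, the chambers of the heart. They hold together through VE-cadherin junctions, grow under VEGF and angiopoietin signals that reach receptor tyrosine kinases, and carry many caveolae, small pits of the plasma membrane. Connexin43, encoded by Gja1, forms gap junction channels between heart muscle cells and is also found in other cells of the heart.

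Levels are given as the log2 ratio of heart to reference with the median of each array set to 0, so that a positive value means a higher ratio than that of the middle probe. A ratio says how a gene compares with the adult organ pool and is no absolute level, and ratios of different probes are not set against each other. In whole hearts, fewer cells of a type and less RNA per cell cannot be told apart. Arrays of null pools had a value at 17879 to 20212 spots, and those of wildtype pools at 12971 to 23929. Wildtype replicate 1 had the fewest, and its median rank correlation with the rest, 0.576, was below the 0.663 or more of the other arrays. Over all probes tested, standard errors of the log2 difference had a median of 0.15.

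Gja1 itself was lower in null hearts. Its probe read -0.29, 0.25, 0.12 and 0.22 on the null arrays, against 1.04, 1.31, 0.99 and 0.79 on the wildtype arrays. The groups did not overlap. Null hearts averaged 0.08 ± 0.25 and wildtype hearts 1.03 ± 0.21 (SD, n = 4 each), a difference of -0.95 (SE 0.15), or 1.94-fold lower. An exact two-sided permutation test gave p = 0.0286, the smallest that 4 against 4 allow, and limma gave an adjusted p of 0.417 over all probes. Where the probe lies relative to the deleted sequence is not given, and the null ratio near the array median is no measure of remaining transcript.

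The DNA around the start of transcription is shown for the 4 members that had 1 tested probe and 1 promoter entry, so that the genes can be read beside their values. ETS factors, which many endothelial promoters bind, recognise the core GGAA. The windows run from 250 bases before to 50 bases after the start, 5′ to 3′ on the strand of the gene, from RefSeq on build GRCm38.p6, and capitals mark GGAA or its reverse complement TTCC.
Flt1, chr5:147725962-147726261, minus strand: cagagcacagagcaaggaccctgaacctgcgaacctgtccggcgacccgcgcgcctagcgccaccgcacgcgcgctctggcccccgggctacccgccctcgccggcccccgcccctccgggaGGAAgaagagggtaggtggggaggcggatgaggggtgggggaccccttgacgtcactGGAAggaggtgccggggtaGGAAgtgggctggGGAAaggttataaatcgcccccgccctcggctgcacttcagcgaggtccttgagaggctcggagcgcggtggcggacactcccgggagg
Tek, chr4:94739039-94739338, plus strand: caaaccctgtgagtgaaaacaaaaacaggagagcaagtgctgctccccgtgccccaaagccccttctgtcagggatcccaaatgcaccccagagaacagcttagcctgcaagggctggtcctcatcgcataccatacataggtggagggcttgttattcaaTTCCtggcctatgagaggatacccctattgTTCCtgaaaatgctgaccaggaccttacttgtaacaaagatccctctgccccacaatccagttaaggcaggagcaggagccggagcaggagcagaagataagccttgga
Eng, chr2:32646345-32646644, plus strand: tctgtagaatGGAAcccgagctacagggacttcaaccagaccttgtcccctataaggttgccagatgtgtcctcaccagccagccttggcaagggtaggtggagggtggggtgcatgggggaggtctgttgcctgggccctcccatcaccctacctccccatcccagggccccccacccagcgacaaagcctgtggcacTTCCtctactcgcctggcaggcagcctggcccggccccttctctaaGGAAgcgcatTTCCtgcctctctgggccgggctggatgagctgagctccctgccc
Adgrg6, chr10:14544987-14545286, minus strand: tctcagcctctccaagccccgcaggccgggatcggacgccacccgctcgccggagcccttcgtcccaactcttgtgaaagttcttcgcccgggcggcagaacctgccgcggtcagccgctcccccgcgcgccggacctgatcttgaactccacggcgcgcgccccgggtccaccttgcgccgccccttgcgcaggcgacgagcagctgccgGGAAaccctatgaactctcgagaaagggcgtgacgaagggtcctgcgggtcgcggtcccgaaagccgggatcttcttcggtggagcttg

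On both strands the core occurred 4 times in Flt1, 2 times in Tek, 4 times in Eng and 1 time in Adgrg6. It was present in 96.0% of all 32851 windows of 300 bases, with a median of 3 matches, so that its presence does not set these windows apart. The longer form AGGAAG, which contains the core, had 2 matches in Flt1, 2 in Eng and 0 in Tek and Adgrg6, and it was present in 35.4% of all windows. The GC box GGGCGG had 3 matches in Flt1 and 2 in Adgrg6, against at least 1 match in 35.7% of all windows. Flt1 alone of the 4 held TATAAA, which 13.6% of all windows held. GC content was 70.7% in Flt1, 52.0% in Tek, 63.3% in Eng and 69.0% in Adgrg6, against a median of 52.7%. A match is only a run of letters, and none of these windows was measured for binding. Of the 10 genes 7 had a promoter entry. Cav1 had a pair of start sites, and the entries of Tie1 and Kdr are left out because neither gene had values on the arrays.

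Most endothelial probes had a mean above the array median in hearts of either genotype. In null hearts 10 of 12 member probes passed limma's test of the group mean against the array median, all of them higher, beside 21.4% of all probes tested that were called higher. In wildtype hearts 7 of 12 were called higher, beside 19.0% of all probes. No member probe was called lower in either genotype, against 20.5% of all probes in null and 12.8% in wildtype hearts. The median of the group means over the 12 probes was 0.73 in null and 0.43 in wildtype hearts, while over all probes tested it was -0.01 in null and 0.04 in wildtype hearts. Tek and Cdh5 spot 24132 were called in neither genotype, and Flt1, Adgrg6 and Cav1 spot 24763 in null hearts but not in wildtype hearts, where Adgrg6 lay below the array median. The group means enter the difference that chose the members, so that these counts and medians are not independent of that choice. Dye effects of single probes remain in them because the dyes were never exchanged. Calls for the genotypes share the reference and are not compared with each other.

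**Figure D1:**
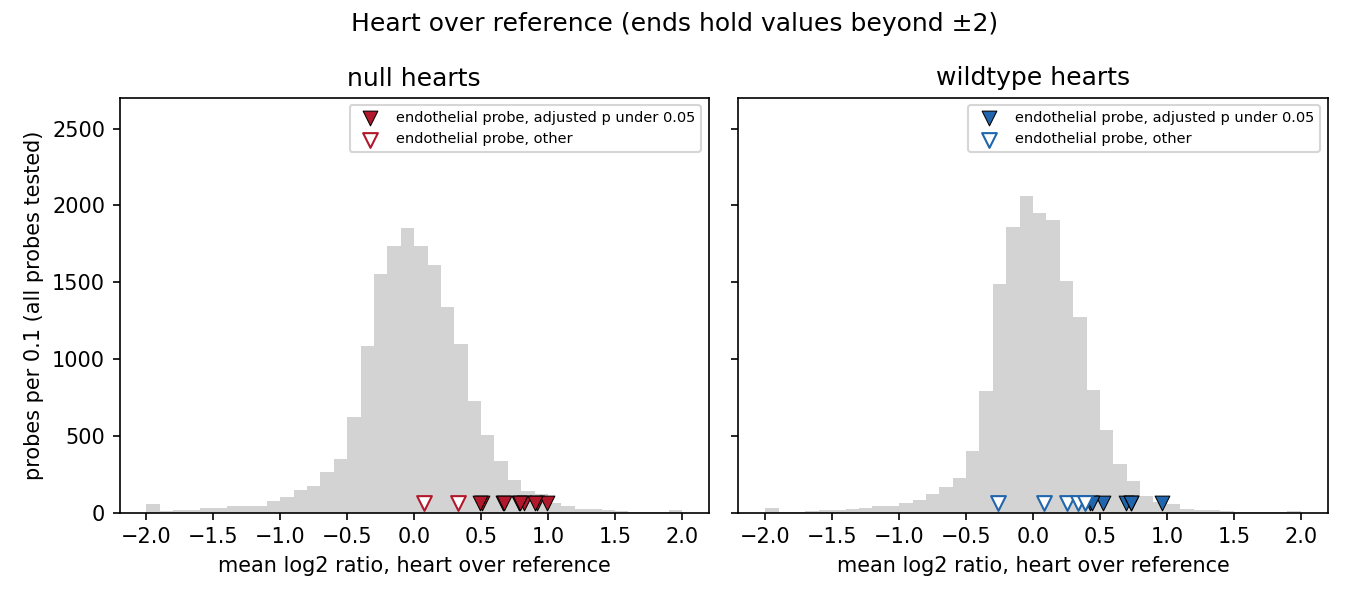
Group mean of the log2 ratio of heart over reference (x axis) for all 16308 probes tested (y axis, number of probes per 0.1), null hearts at left and wildtype hearts at right, with endothelial probes as triangles along the x axis, filled where limma's adjusted p was under 0.05. The filled triangles, 10 in null and 7 in wildtype hearts, all lie right of 0.

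Between genotypes, 9 of the 12 member probes read higher in null hearts and 3 read lower, beside 42.5% of all probes that read higher in null hearts. The median difference was 0.21 for the members and -0.03 for all probes tested. Without wildtype replicate 3 the members' median was 0.05. With no centring it was 0.05 as well, while that of all probes was -0.17, so that differences are given relative to the array median. In limma no probe of the whole series, members included, had an adjusted p under 0.05, so that 0% of 16308 were called. At an unadjusted p under 0.05 limma counted 380 of these probes higher in null hearts (2.33%) and 920 lower (5.64%). The groups did not overlap for 2 member probes, of Cav1 and Adgrg6, beside 2.13% of all probes without overlap and higher in null hearts. Since the members were chosen by this difference, nothing is read from their counts.

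**Figure D2:**
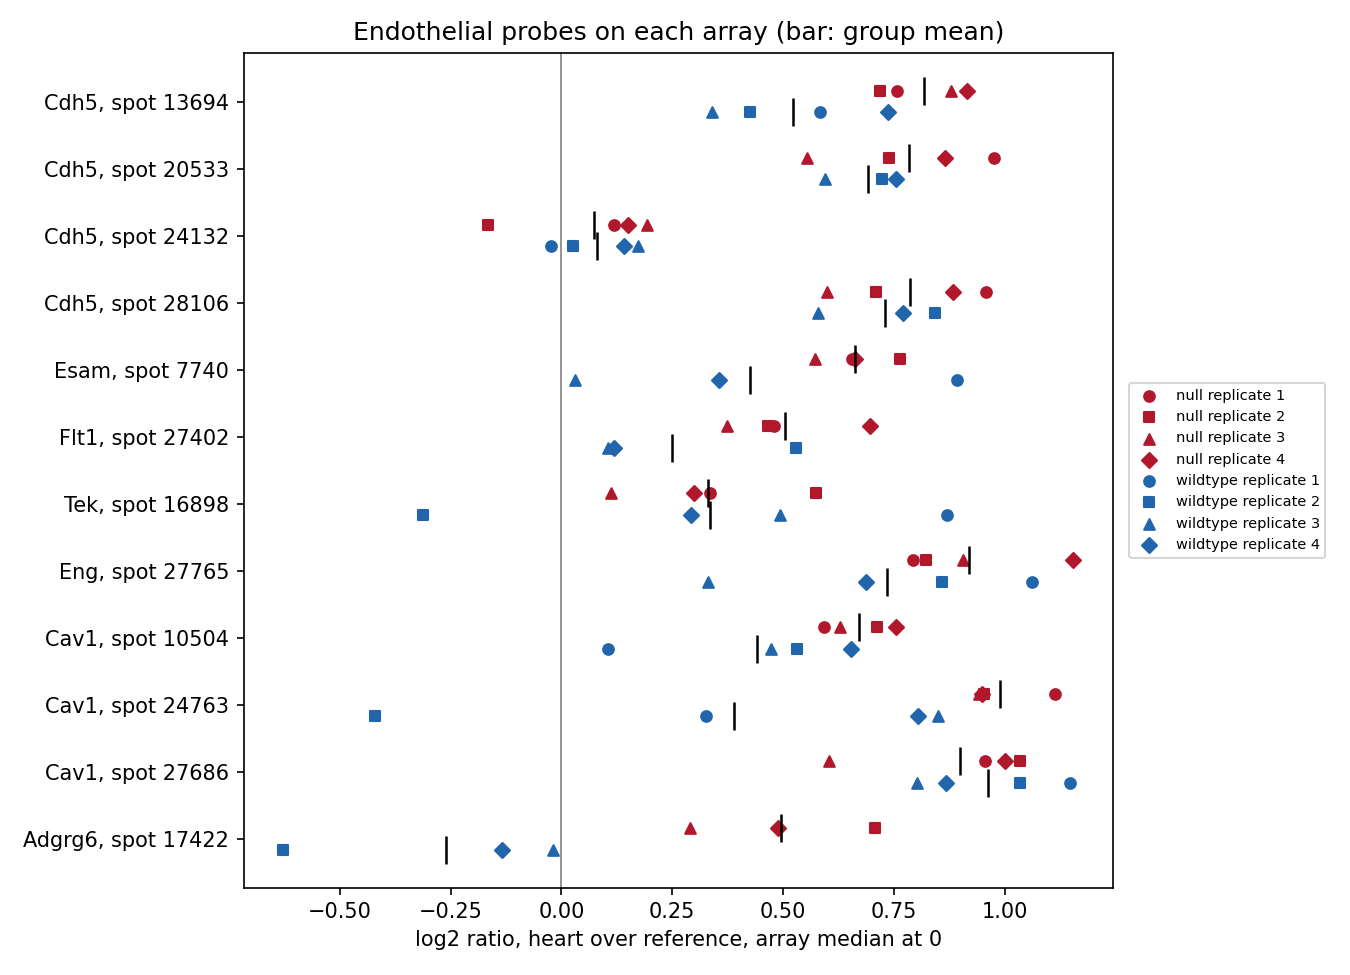
Log2 ratio of heart over reference (x axis) of the 12 endothelial probes (y axis) on each array, null arrays in red above wildtype arrays in blue, with a bar at each group mean. Adgrg6 and 1 Cav1 spot are the rows in which the colours do not overlap, and wildtype replicate 2 lies lowest for Tek, Adgrg6 and that Cav1 spot.

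The junction protein VE-cadherin, encoded by Cdh5, was measured by 4 spots. Spot 13694 read 0.76, 0.72, 0.88 and 0.92 on the null arrays, against 0.58, 0.43, 0.34 and 0.74 on the wildtype arrays. Wildtype replicate 4 lay above null replicate 2, so that the groups overlapped by this array alone. Null hearts averaged 0.82 ± 0.09 and wildtype hearts 0.52 ± 0.18 (SD, n = 4 each), a difference of 0.30 (SE 0.12).

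The other Cdh5 spots showed smaller differences. Spot 20533 read 0.98, 0.74, 0.56 and 0.87 on the null arrays, against 0.72, 0.59 and 0.76 on wildtype replicates 2 to 4, and spot 28106 read 0.96, 0.71, 0.60 and 0.88, against 0.84, 0.58 and 0.77. Their groups overlapped throughout, with differences of 0.09 (SE 0.14) and 0.06 (SE 0.14), and the second was -0.01 without centring. With 1 array left out, spot 20533 ran from 0.03 without null replicate 1 to 0.17 without null replicate 3, and spot 28106 from -0.02 without wildtype replicate 3 to 0.12 without null replicate 3. Spot 24132 read 0.12, -0.16, 0.19 and 0.15 on the null arrays, against -0.02, 0.03, 0.17 and 0.14 on the wildtype arrays, a difference of -0.01 (SE 0.12) that was 0.07 without null replicate 2. This spot stayed near the array median and passed the test against it in neither genotype, with limma adjusted p of 0.496 in null and 0.487 in wildtype hearts. For spots 13694, 20533 and 28106 that p was at most 9.9e-05 in null and at most 0.00111 in wildtype hearts. The last Cdh5 probe had no value on any array.

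**Figure D3:**
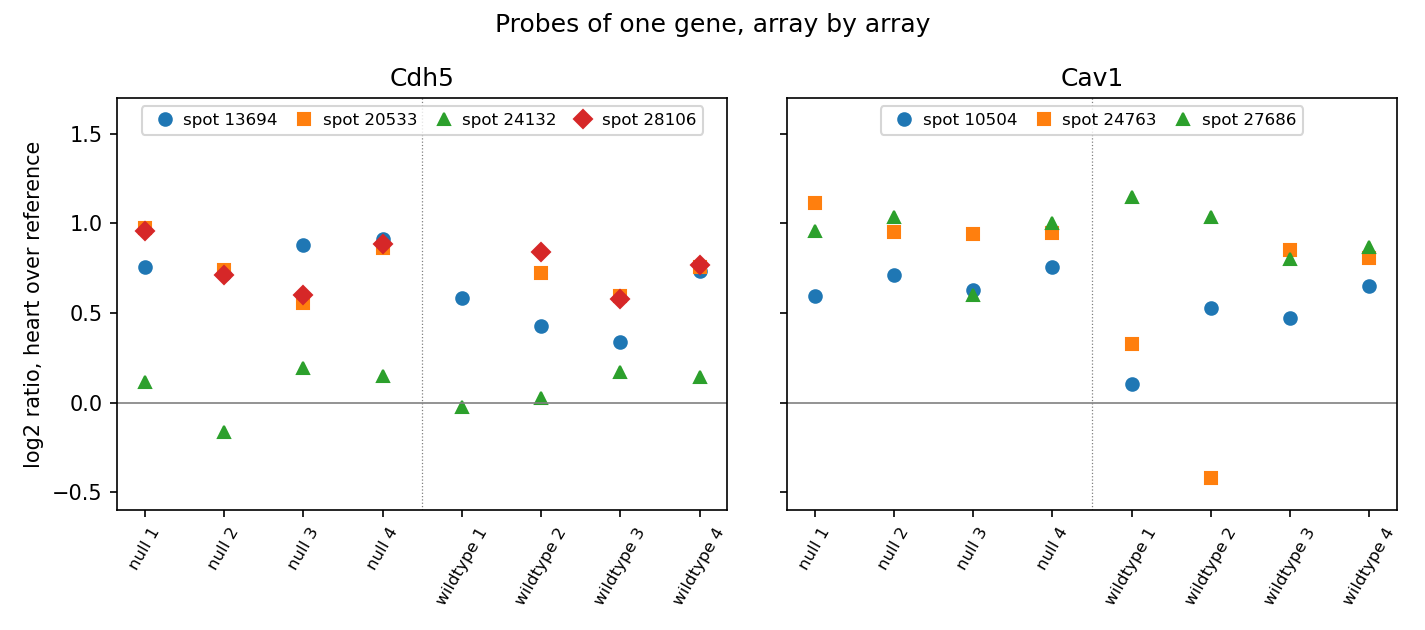
Log2 ratio of heart over reference (y axis) on each array (x axis), with null arrays left of wildtype arrays, for the 4 Cdh5 spots (left panel) and the 3 Cav1 spots (right panel). Cdh5 spot 24132 stays near 0, and Cav1 spot 24763 reads -0.42 on wildtype replicate 2 where the other Cav1 spots read 0.53 and 1.03.

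Esam, an immunoglobulin-like adhesion molecule of endothelial tight junctions, read 0.66, 0.77, 0.57 and 0.66 at spot 7740 on the null arrays, against 0.89, 0.03 and 0.35 on wildtype replicates 1, 3 and 4. The null values lay close together, and the wildtype values spread to either side of them. The mean was 0.66 ± 0.08 in null hearts (SD, n = 4) and 0.43 ± 0.44 in wildtype hearts (SD, n = 3). The difference of 0.24 (SE 0.19) was 0.04 without wildtype replicate 3 and 0.47 without wildtype replicate 1. Against the array median, Esam was called in null hearts (limma adjusted p = 0.00189) and narrowly in wildtype hearts (adjusted p = 0.0417), a call that was lost on leaving out any array but wildtype replicate 3, with adjusted p up to 0.223 without wildtype replicate 1.

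Esam and Adgrg6 also mark the edge of the rule on missing values. A second Esam probe, spot 5038, had values on only 2 wildtype arrays and was left out. It read 0.75, 0.77 and 0.84 on null replicates 1, 2 and 4, against 0.42 and 0.64 on wildtype replicates 3 and 4. A second Adgrg6 probe, spot 1426, had 1 value on a null array, 0.35 on replicate 2, against -0.17, -0.20 and -0.01 on wildtype replicates 2 to 4. A second Eng probe, spot 17684, read -0.70 on null replicate 3, against -0.02 and -0.19 on wildtype replicates 2 and 4. The Adgrg6 probe described below, with 3 arrays per genotype, is the member that just met the rule.

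Among the growth factor receptors, Flt1 was measured by 1 spot. It encodes VEGF receptor 1, which binds VEGF-A and placental growth factor and limits VEGF-A's access to its main signalling receptor, encoded by Kdr. Flt1 read 0.48, 0.47, 0.37 and 0.70 on the null arrays, against 0.53, 0.11 and 0.12 on wildtype replicates 2 to 4. Wildtype replicate 2 lay among the null values and the other wildtype arrays lay below all of them. The mean was 0.50 ± 0.14 in null hearts (SD, n = 4) and 0.25 ± 0.24 in wildtype hearts (SD, n = 3). The difference of 0.25 (SE 0.15) was 0.39 without wildtype replicate 2 and 0.18 without wildtype replicate 3. Against the array median, limma's adjusted p was 0.00244 in null and 0.109 in wildtype hearts.

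Tek encodes TIE2, the receptor for angiopoietins. It read 0.33, 0.57, 0.11 and 0.30 on the null arrays, against 0.87, -0.31, 0.49 and 0.29 on the wildtype arrays. The wildtype values enclosed all null values. Means were 0.33 ± 0.19 for null hearts and 0.34 ± 0.49 for wildtype hearts (SD, n = 4 each), a difference of -0.01 (SE 0.22). With so wide a spread the direction depended on wildtype replicates 1 and 2, the difference being 0.17 without the first and -0.22 without the second. Tek was not called against the array median in either genotype (limma adjusted p = 0.103 in null, 0.112 in wildtype hearts), and without wildtype replicate 2 it was called in wildtype hearts (0.55, adjusted p = 0.0131) and in null hearts (0.33, adjusted p = 0.0372). Without wildtype replicate 1 it was called in null hearts as well (adjusted p = 0.0485).

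Endoglin, encoded by Eng, is a co-receptor through which endothelial cells respond to BMP9. It read 0.79, 0.82, 0.91 and 1.16 on the null arrays, against 1.06, 0.86, 0.33 and 0.69 on the wildtype arrays. The ranges overlapped, with wildtype replicate 3 lowest and null replicate 4 highest. Endoglin averaged 0.92 ± 0.16 over null and 0.74 ± 0.31 over wildtype hearts (SD, n = 4 each), a difference of 0.18 (SE 0.16) that was 0.05 without wildtype replicate 3 and 0.29 without wildtype replicate 1. As ratios over the reference relative to the array median these means are 1.89-fold in null and 1.66-fold in wildtype hearts. Both passed limma's test (adjusted p = 0.00011 in null, 0.000749 in wildtype hearts).

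Caveolin-1, encoded by Cav1, builds caveolae in endothelium and is also made by fibroblasts, smooth muscle and fat cells. Its 3 spots did not give like values. Spot 24763 read 1.11, 0.95, 0.94 and 0.95 on the null arrays, against 0.33, -0.42, 0.85 and 0.81 on the wildtype arrays. The groups did not overlap, though wildtype replicates 3 and 4 lay close beneath the null arrays. The difference was 0.60 (SE 0.24) and was 0.33 without wildtype replicate 2.

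Spot 10504 of Cav1 read 0.59, 0.71, 0.63 and 0.76 on the null arrays, against 0.11, 0.53, 0.47 and 0.65 on the wildtype arrays. Only wildtype replicate 4 lay within the null range, and the difference was 0.23 (SE 0.13), or 0.12 without wildtype replicate 1. Spot 27686 read 0.96, 1.03, 0.60 and 1.00 on the null arrays, against 1.15, 1.03, 0.80 and 0.87 on the wildtype arrays, a difference of -0.06 (SE 0.13). Here wildtype replicate 1 was the highest of the 8 arrays, while spot 10504 put the same array lowest. The direction of spot 27686 turned to 0.03 without null replicate 3, and its difference was -0.12 without wildtype replicate 3. All 3 spots were called higher than the array median in null hearts (limma adjusted p of at most 0.000924). In wildtype hearts spots 10504 and 27686 were called (adjusted p = 0.00501 and 4.32e-05) and spot 24763 was not (adjusted p = 0.0961), unless wildtype replicate 2 was left out (0.66, adjusted p = 0.0034).

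Adgrg6, also known as Gpr126, is a G protein-coupled receptor with a long adhesive outer part, known in mice for heart development and for myelination by Schwann cells. It had the largest difference of the 12 probes. It read 0.71, 0.29 and 0.49 on null replicates 2 to 4, against -0.63, -0.02 and -0.13 on wildtype replicates 2 to 4, and replicate 1 of either genotype had no value. Every null value lay above 0 and every wildtype value below it. Means were 0.49 ± 0.21 for null hearts and -0.26 ± 0.32 for wildtype hearts (SD, n = 3 each). The difference of 0.75 (SE 0.19), or 1.69-fold, stayed between 0.57 and 0.88 when any 1 array was left out. Against the array median, Adgrg6 was called in null hearts (limma adjusted p = 0.0167, lost without null replicate 2 at 0.39 with adjusted p = 0.117, and without null replicate 4 with adjusted p = 0.0649) and was not called in wildtype hearts (adjusted p = 0.167). The list of Schwann cell and neuron markers, given with the other cell types below, had 2 of 7 probes higher and 5 lower in null hearts. Over all probes tested 42.5% read higher in null hearts. The 7 probes stand for only 3 genes. Mbp spot 2033, with values on 3 arrays per genotype, was 0.40 higher in null hearts without overlap. The other Mbp spots, 2827, 16455 and 26120, were lower in null hearts with overlap, at -0.36, -0.62 and -0.52. Any link between these markers and Adgrg6 was not tested.

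**Figure D4:**
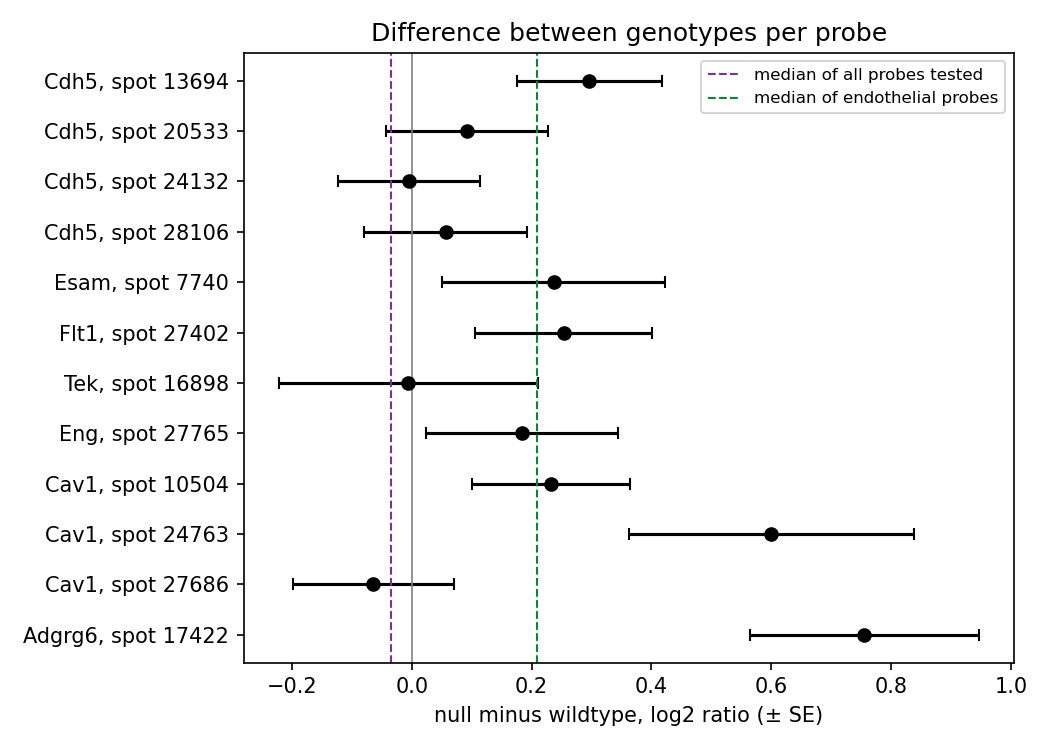
Difference of group means, null minus wildtype, in log2 units (x axis) with its standard error for each endothelial probe (y axis), with dashed lines at the medians of all probes tested (-0.03) and of the endothelial probes (0.21). Differences run from -0.06 for Cav1 spot 27686 to 0.75 for Adgrg6.

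The spread of the members among replicates is given as a description. For 8 of 12 probes the SD was larger in wildtype hearts, a share near the 58.7% of all probes tested. It was larger in null hearts for Cdh5 spots 20533, 24132 and 28106 and Cav1 spot 27686. The median SD over the members was 0.16 in null and 0.24 in wildtype hearts. Over all probes the median SD was 0.17 in null and 0.19 in wildtype hearts. Without wildtype replicate 1 the members' count was again 8 of 12, beside 44.5% of all probes.

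A mean profile was formed from the 7 member probes with values on all 8 arrays, which stand for Cav1, Cdh5, Tek and Eng. It was 0.67, 0.66, 0.61 and 0.75 on the null arrays, against 0.58, 0.31, 0.49 and 0.60 on the wildtype arrays. All null arrays lay above all wildtype arrays, null replicate 3 narrowly so above wildtype replicate 4. The members were chosen by this difference on the same arrays, so nothing is read from that separation. Wildtype replicate 2 was lowest, and the Tek and Cav1 24763 probes were negative there.

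Correlations between single member probes varied widely. Between member probes of different genes, Pearson's r over the 8 arrays, or fewer where values were missing, had a median of 0.31 over 56 pairs, from -0.69 to 0.86. Between probes of the same gene the median was 0.16 over 9 pairs, from -0.41 to 0.94. All pairs share the arrays and the reference, and r includes the genotype difference that chose the members. No value over other probe pairs stands beside these, so how the genes follow each other is not read from them. Of 10320 probes with values on all arrays, the named ones most like the mean profile were those of Maged2, Smarcc2, Prrc2b, Fxyd5 and Ccnd2, with r of 0.91, 0.90, 0.89, 0.89 and 0.88 over 8 arrays. Each of the 5 was lowest on wildtype replicate 2, with values of 0.12, -0.92, -0.44, -0.57 and -0.44. The mean profile is lowest on that array too, and the 5 were picked for the highest r, so nothing is read from this likeness.

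Other genes of the same pathways were counted in lists, each probe by probe, and no probe of any list passed limma's adjusted p of 0.05 between genotypes. Each list stands beside all probes tested, of which 42.5% read higher in null hearts. Without overlap, 2.13% of all probes were higher and 5.38% lower in null hearts. Among junction and surface genes, 17 of 21 probes of 10 genes read higher in null hearts, with a median difference of 0.11. Leaving out the member genes Cdh5 and Esam, 13 of 16 did, from 8 genes. The mean of the 11 of these probes present on all arrays was 0.51 to 0.58 on null arrays, against 0.37 to 0.49 on wildtype arrays. The lists were chosen with earlier results of these data known, so nothing is read from a separation of list means. Against the array median, 11 of these 16 probes were called higher in null hearts and 10 in wildtype hearts, and 0 were called lower. Of all probes tested, 21.4% were called higher and 20.5% lower in null hearts, and 19.0% and 12.8% in wildtype hearts.

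Emcn, the sialomucin endomucin of veins, capillaries and endocardium, was called high over the reference in both genotypes. It read 1.05, 1.08, 1.25 and 1.11 on the null arrays, against 1.67, 0.46, 0.98 and 0.94 on the wildtype arrays. Wildtype arrays were both highest and lowest, and the difference was 0.11 (SE 0.21), with limma adjusted p against the array median of 0.000167 in null and 0.000516 in wildtype hearts.

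Mcam, an adhesion molecule of endothelium and pericytes, read 1.29, 1.08, 1.22 and 1.18 at spot 28320 on the null arrays, against 0.76, 0.96, 0.76 and 0.93 on the wildtype arrays. The groups did not overlap there, with a difference of 0.34 (SE 0.11), while spot 27346 had 0.11 (SE 0.17) with overlap. The scaffold gene Tjp1 had the list's other probe without overlap among genes that are not members, 0.41 (SE 0.16), and was named after its values were seen. A second Tjp1 spot had 0.11 (SE 0.11) with overlap. The surface sialomucin gene Cd34 had differences of -0.16, 0.22 and 0.35 at its 3 spots. The tight junction genes Cldn5, Jam3 and F11r had differences between -0.05 and 0.17 over 5 spots, none without overlap.

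In the VEGF pathway all 10 tested probes, from 4 genes, read higher in null hearts, with a median difference of 0.09. Without Flt1 this was 9 of 9 with a median of 0.07, and the mean of the 8 probes on all arrays was 0.25 to 0.45 on null arrays, against 0.05 to 0.28 on wildtype arrays, so that the groups overlapped. The 9 probes stand for only 3 genes, the VEGF and semaphorin co-receptor gene Nrp1 and the adaptor genes Shc1 and Grb2, which act in many cell types. Nrp1 had differences of 0.33 (SE 0.17) and 0.12 (SE 0.11) at its spots. The 4 Shc1 spots had 0.01, 0.06, 0.46 and 0.06, and the 3 Grb2 spots had 0.07, 0.06 and 0.17. The Shc1 spot with 0.46 was the list's only one without overlap.

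The angiopoietin and TIE list kept 2 probes, Tek and the adaptor gene Dok2, which blood cells also express. Dok2 read -0.69, -0.56, -0.31 and -0.20 on the null arrays, against 0.11, -0.12 and -0.16 on wildtype replicates 2 to 4, a difference of -0.38 (SE 0.15) without overlap.

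The genes of BMP9 and endoglin signalling did not move one way, with 8 of 15 probes higher and 7 lower in null hearts and a median difference of 0.00. Acvrl1, which encodes ALK1, the type I receptor for BMP9, read -0.40, -0.19, -0.40 and -0.32 on the null arrays, against -0.32, -0.40, -0.17 and -0.43 on the wildtype arrays. Both means were -0.33, and each was called lower than the array median by limma (adjusted p = 0.00714 in null, 0.00919 in wildtype hearts). The receptor genes Bmpr2 (-0.13 and -0.20) and Tgfbr2 (-0.21) and the signal transducer gene Smad4 (-0.24) read lower in null hearts, and Smad1 read 0.07 higher. The 3 Tgfbr3 spots had differences of 0.35, -0.13 and -0.05. Id2, a target of BMP signals, was named after its values were seen: spot 23488 was the list's only probe without overlap, -0.49 (SE 0.14), while spot 26918 had 0.06 (SE 0.13) with overlap.

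Of the caveolar genes, 6 of 9 probes read higher in null hearts, with a median difference of 0.18. Without Cav1 this was 4 of 6 with a median of 0.13, and the mean of the 5 probes on all arrays was 0.36 to 0.50 on null arrays, against 0.20 to 0.35 on wildtype arrays. Cavin1, a coat protein gene of caveolae, had differences of -0.11, -0.13 and 0.25 at its spots, all called higher than the array median in both genotypes. Cavin2 had 0.08 (SE 0.13), and Pacsin2, whose product shapes membranes, had 0.18 and 0.29. None of these 6 probes was without overlap.

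Endothelial transcription factors went in either direction, with 6 of 16 probes higher and 10 lower in null hearts and a median difference of -0.05. Both spots of Klf4, a factor that responds to blood flow in endothelium and is made in many epithelia, were lower in null hearts without overlap. Klf4 spot 6018 read -1.21, -0.75, -1.03 and -0.97 on the null arrays, against -0.56, -0.42, -0.57 and -0.28 on the wildtype arrays, a difference of -0.53 (SE 0.13). Klf4 spot 434 read -1.28, -0.68, -1.24 and -0.84 on the null arrays, against 0.59, -0.29, -0.61 and -0.35 on the wildtype arrays, a difference of -0.85 (SE 0.24).

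Klf2, the related flow-responsive factor, had a difference of -0.26 (SE 0.13) with overlap. The ETS family gene Ets2 read 0.60, 0.80, 0.70 and 0.61 on the null arrays, against 0.35, 0.42, 0.34 and 0.44 on the wildtype arrays. Its groups did not overlap, and the difference was 0.29 (SE 0.10). Ets1 had 0.41 (SE 0.16) and 0.36 (SE 0.19) at its spots, with overlap. Gata2 had -0.38 (SE 0.25) and Lmo2 had 0.01 (SE 0.13). Hhex (-0.26) and Tcf4 spot 3444 (-0.45) were the list's other probes lower without overlap and were named after their values were seen. The other Tcf4 spots had -0.06 and 0.08, with overlap. In all, 4 of 16 probes were lower and 1 was higher without overlap, beside 5.38% and 2.13% of all probes tested.

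Other endothelial genes were evenly split, with 9 of 19 probes from 16 genes higher in null hearts, a median difference of -0.01 and none without overlap. Gpihbp1, which carries lipoprotein lipase across capillary endothelium, had 0.16 (SE 0.15) and was called higher than the array median in null (limma adjusted p = 0.0036) and wildtype hearts (adjusted p = 0.033). Plvap, the diaphragm protein of fenestrae and caveolae, had -0.23 (SE 0.24). The adhesion receptor genes Adgrl4 and Adgrf5 had -0.12 and -0.06, the water channel gene Aqp1 had -0.29 and -0.11, and Tm4sf1 had 0.19.

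The endocardial list, which includes Adgrg6 and Plvap, had 3 of 6 probes higher and 3 lower in null hearts. Npr3, a natriuretic peptide receptor that marks endocardium, read 0.51, 1.30, 1.23 and 1.32 on the null arrays, against 1.29, 1.39 and 0.95 on wildtype replicates 2 to 4. The ranges overlapped, the difference was -0.12 (SE 0.21), and Npr3 was called higher than the array median in both genotypes. Tmem100 had 0.14, and the spots of Gata4, a factor also of heart muscle, had -0.12 and 0.21. Of the lymphatic list 2 genes were on the array, and none of their probes had enough values.

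**Figure D5:**
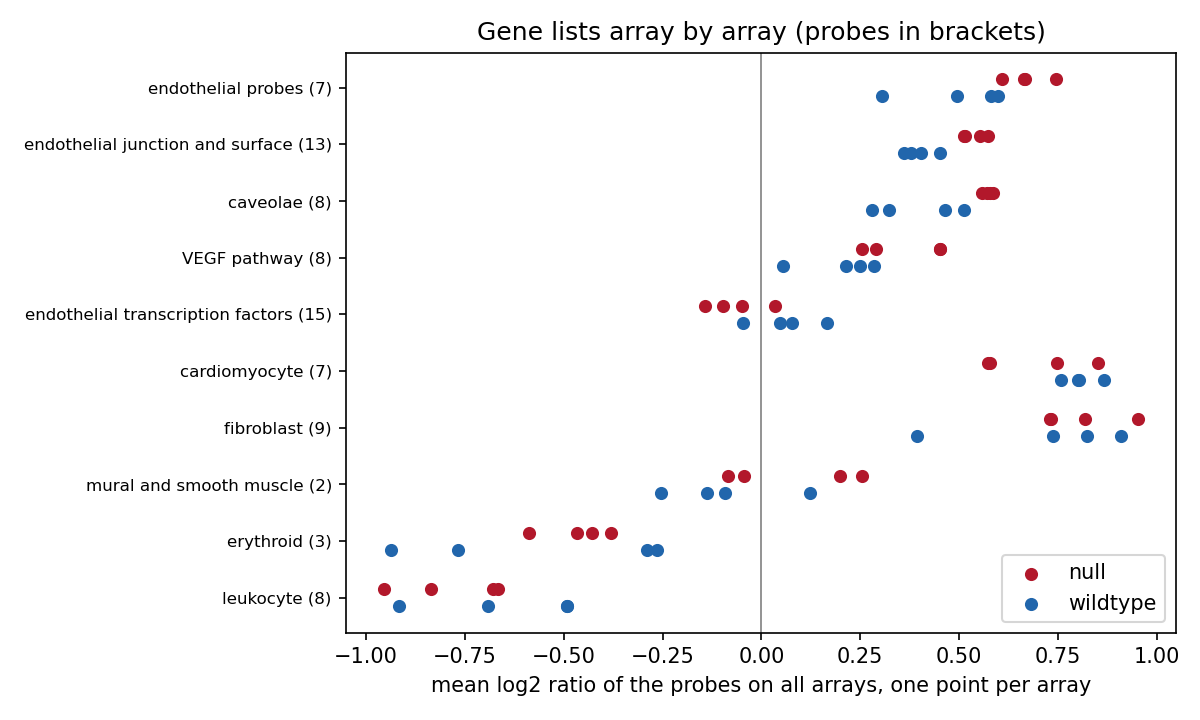
Mean log2 ratio of heart over reference (x axis) of 10 gene lists (y axis), over the probes with values on all arrays, whose number stands in brackets, with a point per array, null in red above wildtype in blue. Junction and surface genes lie at 0.51 to 0.57 on null arrays and 0.36 to 0.45 on wildtype arrays. This row includes Cdh5 spots, chosen by the same difference, and without member genes the ranges were 0.51 to 0.58 and 0.37 to 0.49. The caveolae row includes Cav1. Means of the 8 leukocyte probes and of the 3 erythroid probes drawn lie below 0 on every array. Over all 10 tested erythroid probes the median was 0.08 in null and -0.07 in wildtype hearts.

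Markers of other cell types also had differences, none of which passed limma's test, and their part in the endothelial differences was not tested. Means per array are over the probes of a list with values on all arrays, and medians and counts are over all its tested probes. Fibroblasts also make Cav1, and their markers had 10 of 11 probes higher in null hearts, with a median difference of 0.10 and a mean level of 0.73 to 0.95 on null arrays, against 0.39 to 0.91 on wildtype arrays. Cardiomyocyte markers had 5 of 7 probes lower in null hearts (median -0.17, with means of 0.57 to 0.85 on null arrays and 0.76 to 0.87 on wildtype arrays). Mural and smooth muscle markers had 2 of 6 higher (median -0.05). The mean of only 2 of these probes, those on all arrays, was -0.09 to 0.26 on null arrays and -0.25 to 0.12 on wildtype arrays. Erythroid markers had 9 of 10 higher (median 0.19). The mean of the 3 erythroid probes on all arrays was -0.59 to -0.38 on null arrays, within the -0.94 to -0.26 of wildtype arrays. Among these, Car2 lay far below the array median, at -1.75 in null and -1.68 in wildtype hearts. Over all 10 tested erythroid probes the median of the group means was 0.08 in null and -0.07 in wildtype hearts.

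Leukocyte markers had 7 of 9 probes lower in null hearts (median -0.13), with means of -0.95 to -0.67 on null arrays and -0.92 to -0.49 on wildtype arrays. All 3 platelet probes were lower in null hearts (median -0.31). All 3 lung epithelial probes were lower in null hearts (median -0.63). The mean of the 2 on all arrays was -3.33 to -2.93 on null arrays, which did not overlap the -2.80 to -2.29 of wildtype arrays. Liver markers had 8 of 9 probes lower (median -0.25, with means of -1.32 to -0.70 on null arrays and -0.92 to -0.56 on wildtype arrays). Schwann cell and neuron markers had 5 of 7 lower (median -0.36, with means of -1.85 to -1.37 on null arrays and -1.49 to -1.06 on wildtype arrays), and epicardial markers had 1 of 2 lower (median -0.16).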

How the data were processed

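Two-channel arrays had been hybridised with cDNA from pools of 3 neonatal hearts, 4 pools per genotype, and a common adult reference, per the labels. The deposited values are log ratios per spot. The log2 base was taken from the deposited values: of 31304440 differences between spots of a block, 8347 equalled, to 1.5e-09, a base 2 log of some quotient of integers no larger than 120, while 269 did so for base e and 863 for base 10. The image software, background correction, spot filter and scaling used by the authors were, for these arrays, not given in the sources used here. The labels do not settle the direction of the ratio. It was taken as heart over reference because the median of cardiomyocyte markers, 0.56 to 0.97, lay above that of other adult tissues, -2.38 to -0.87, on 8 of 8 arrays.

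Gene names came from the platform annotation, which can be old: 18511 of 28704 probes had 1 symbol, 937 had several and 9256 are unnamed here. A gene number shared with the RefSeq table was found for 18267 named probes and changed 0 symbols. Arrays were centred on their medians. Probes that met the limit of 3 arrays in each genotype were fitted one by one with lmFit and eBayes in limma 3.58.1 under R 4.3.3, and adjusted with Benjamini-Hochberg over all 16308 probes at a threshold of 0.05. The same fit gave null minus wildtype and each group mean against 0. The script was tested on simulated data with 200 changed probes. For null minus wildtype it recovered 0% of them at a log2 difference of 0.5, 75% at 1 and 88.5% at 1.5. False calls numbered 0, 5 and 11. The simulated noise was normal, independent and of equal spread on every array, which the real arrays need not share. In the data Gja1, at -0.95, was itself not called (limma adjusted p = 0.417). The lack of calls between genotypes is therefore no sign that a probe was unchanged. Tables and figures used Python 3.11.15, numpy 2.4.6, pandas 2.3.3, scipy 1.17.1 and matplotlib 3.10.9.

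The labels name separate pools without saying more of the animals. Each pool had its own array, so the spread behind the p-values mixes differences of pools, labelling and arrays. In limma that spread also draws on the variance of all probes. The number of arrays limits the precision. The members, lists and tests were chosen with earlier results of these data known. Named genes were Gja1, every member probe with enough values, up to 6 measured genes per list in its written order, the 5 named probes most like the mean member profile, and a few named after their values were seen, as marked. The alternatives were other centring and normalization, other limits on missing values, genes in place of probes, other eBayes settings, array weights, other thresholds, each array left out and the replicate number as a block.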

Additional observations from a re-analysis of the deposited data

Results flagged for a closer look

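In 42 groups of 4 arrays examined, 2 held an array that stood far from the other 3, by Dixon's gap over range at the 95% critical value. Chance flags about 1 in 20 groups. At Cav1 spot 24763 null replicate 1 read 1.11, while the other null arrays read 0.94 to 0.95, so that the gap is small in log2 units and large only beside the narrow spread of the rest. In the mean of the Schwann cell and neuron markers null replicate 4 read -1.37, against -1.85 to -1.78 on the other null arrays.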

How the results depend on the processing

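The members' median difference of 0.21 was 0.0501 without centring and ran from 0.0483 to 0.233 when each array was left out, with the lowest value without wildtype replicate 3. Without centring Cdh5 spot 13694 was 0.14, against 0.30 with it, and Cdh5 spot 24132 was -0.16, against -0.01. The count of probes called between genotypes was 0 in each setting run, including each array left out and an adjusted p under 0.1. Gja1 ran from -1.04 to -0.83 with each array left out, where the exact permutation p was 0.0571, the smallest that 4 against 3 allow.

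Calls over the reference depended more on the processing. In null hearts they numbered 6834, or 4487 with values on all 8 arrays, where 10320 probes were tested, and 4566 to 7904 with each array left out. In wildtype hearts they numbered 5190, or 3280 to 5445 with each array left out. Without centring the null calls were 1007 higher and 6335 lower, against 3493 and 3341 with it, and the wildtype calls were 1186 higher and 2541 lower, against 3105 and 2085. Member probes called higher were then 7 in null and 6 in wildtype hearts, and Adgrg6 was called lower in wildtype hearts (limma adjusted p = 0.0411). The null calls of Esam, Adgrg6 and Flt1 and the wildtype call of Esam were lost without centring (limma adjusted p of 0.0834, 0.09, 0.087 and 0.245). With array weights the wildtype call of Esam was lost (adjusted p = 0.0987) and Tek was called in null hearts (adjusted p = 0.00482). With centring within blocks Flt1 was called in wildtype hearts (adjusted p = 0.0413). The causes were not tested.

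With the replicate number as a block the members' median was 0.19, Gja1 was -0.95 and the count between genotypes was 0. At an unadjusted p the block counted 235 probes higher and 643 lower, against 380 and 920 without it. Same-numbered arrays correlated at -0.24 to -0.005, and 0 arrays correlated best with their own number, so that the numbers were not taken as pairs. Without a dye exchange, dye effects of single probes cannot be told apart from distances to the reference.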
